A study of Mus musculus with 9 samples.

Results

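The integrin subunit genes described here are 6 alpha subunits (Itga3, Itga4, Itga5, Itga6, Itga9 and Itgav) and 4 beta subunits (Itgb1, Itgb3, Itgb5 and Itgb8), taken by name from the gene totals of all 9 libraries. They are 10 of the 51717 mouse genes with a total and 10 of the 13064 that passed the filter on low counts, so every listed subunit was tested. The libraries came from B16F10 cells, a pigmented mouse melanoma line grown in culture, in 3 forms: SIRPA overexpression, SIRPA knockdown and a non-target control, with 3 libraries of each. SIRPA is an inhibitory membrane receptor that binds CD47, a membrane protein first described as integrin-associated. All 3 forms share the parental line and the culture medium, and no other treatment is given. Each form was a single line. The sources used here do not give the construct, the number of clones or whether the non-target control matches the overexpression vector. A difference between lines can therefore not be told apart from a difference between derived cell populations, and the p-values below measure the spread between libraries of a line.

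Integrins are cell surface receptors built from an alpha and a beta chain, and the pairing sets which ligand is bound. The beta1 chain pairs with many alpha chains: with alpha3 and alpha6 it forms laminin receptors, with alpha5 the main fibronectin receptor, with alpha4 a receptor for VCAM-1 and fibronectin, and with alpha9 a receptor for tenascin-C and osteopontin. The alphav chain also pairs with beta3, beta5 and beta8 in receptors for vitronectin, fibronectin and latent TGF-beta. In melanoma, alphavbeta3, alpha4beta1 and the laminin receptors have long been studied for their part in migration and metastasis.

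The labels were checked on Sirpa itself, which averaged 902 ± 10.0 CPM in overexpression libraries, 115 ± 2.98 CPM in knockdown libraries and 295 ± 7.40 CPM in control libraries (SD, n = 3 each). CPM are counts per 1000000 scaled between libraries by TMM, and they serve to compare a gene between lines. A library held from 16.4 to 22.38 times 1000000 estimated counts, and the replicate coefficient of variation over genes was 0.0966. All 7 melanocyte markers were tested, with a summed level of 18450 to 18880 CPM in overexpression libraries, 16500 to 17140 CPM in knockdown libraries and 16910 to 17120 CPM in control libraries. Single markers moved in both directions. In overexpression, knockdown and control libraries, means were 334, 290 and 378 CPM for Mitf and 413, 416 and 492 CPM for Sox10. They were 7773, 7584 and 6565 CPM for Tyrp1, 604, 445 and 441 CPM for Tyr and 902, 882 and 867 CPM for Mlana. Dct (4659, 3903 and 4458 CPM) and Pmel (3919, 3401 and 3810 CPM) were above control in overexpression and below it in knockdown. Of 7 macrophage markers 2 were tested and Adgre1, Fcgr1 and Ptprc were at 0, with a summed level of 2.65 to 3.55 CPM in overexpression, 3.69 to 4.80 CPM in knockdown and 1.78 to 3.25 CPM in control libraries. The tested ones, Cd68 and Lyz2, were not called against control, and Cd68 was called lower in overexpression than in knockdown (1.05 and 2.78 CPM; adjusted p = 0.0226). Of 5 platelet markers Itga2b was tested and Pf4 and Ppbp were at 0, with sums of 0.745 to 1.24, 0.790 to 0.902 and 0.789 to 1.82 CPM in the same order of lines. Of 5 endothelial markers 1 was tested and Cdh5 and Kdr were at 0, with sums of 2.59 to 2.87, 2.499 to 2.92 and 3.09 to 5.39 CPM. Of 6 epithelial markers 1 was tested and 5 were at 0, with sums of 0.824 to 0.917, 0.119 to 1.16 and 0.887 to 2.06 CPM. None of 6 T and NK cell markers was tested and 5 were at 0, with sums of at most 0.121 CPM. RNA was measured in bulk, so fewer cells carrying a transcript and less of it per cell cannot be told apart in any value below.

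Levels of different genes were compared in TPM, which is scaled per transcript length. Itgb1, the shared partner of most alpha chains, was the most abundant subunit in every library, with a mean of 238 TPM in overexpression libraries, 234 TPM in knockdown libraries and 268 TPM in control libraries. Itga6 and Itgav followed. In overexpression libraries Itgav averaged 51.8 TPM and Itga6 42.9 TPM, in knockdown libraries Itgav averaged 31.1 TPM and Itga6 57.3 TPM, and in control libraries Itgav averaged 43.3 TPM and Itga6 54.9 TPM. In these gene totals the libraries of Itgav and Itga6 did not overlap within any line, with Itgav above Itga6 in the overexpression line and below it in the knockdown and control lines. The order depends on which transcripts are counted, among them a noncoding transcript of Itga6 and a short coding transcript of Itgav. Over protein-coding transcripts alone, Itgav was above Itga6 in overexpression (48.9 to 53.9 TPM against 22.2 to 24.7 TPM) and in control libraries (37.1 to 48.0 TPM against 30.95 to 31.8 TPM), and they overlapped in knockdown libraries (28.2 to 34.9 TPM and 32.0 to 33.4 TPM). With the most abundant transcript alone, Itgav was above Itga6 in overexpression and below it in knockdown, and they overlapped in control libraries (25.9 to 29.0 TPM and 28.3 to 31.6 TPM).

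Below them in the gene totals came Itgb5, Itga5 and Itga4, in that order of means in each line. Itgb5 averaged 24.3 TPM in overexpression, 30.5 TPM in knockdown and 29.5 TPM in control libraries. Itga5 averaged 17.8 TPM in overexpression, 23.5 TPM in knockdown and 13.5 TPM in control libraries. Itga4 averaged 12.4 TPM in overexpression, 19.5 TPM in knockdown and 13.3 TPM in control libraries. Itgav and Itgb5 overlapped in knockdown libraries, and Itga5 and Itga4 overlapped in control libraries. Itga9 averaged 11.2 TPM in overexpression, 7.46 TPM in knockdown and 6.78 TPM in control libraries, and its libraries overlapped those of Itga4 in the overexpression line, of Itgb3 in the knockdown line and of Itga3 in the control line.

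The bottom of the order held Itgb3, Itga3 and Itgb8. Itgb3 averaged 5.67 TPM in overexpression, 6.23 TPM in knockdown and 3.66 TPM in control libraries. Itga3 averaged 1.30 TPM in overexpression, 1.53 TPM in knockdown and 6.03 TPM in control libraries, so it ranked above Itgb3 in the control line and below it in the other lines. Itgb8 was lowest in each line by mean, at 0.514 TPM in overexpression, 1.17 TPM in knockdown and 0.444 TPM in control libraries, and it overlapped Itga3 in knockdown libraries.

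Counts were tested with edgeR's quasi-likelihood test. Calls were made where the p adjusted by Benjamini-Hochberg over 13064 genes was under 0.05. In overexpression against control, 8 of the 10 subunits were called, 4 higher (Itga5, Itga9, Itgav and Itgb3) and 4 lower (Itga3, Itga6, Itgb1 and Itgb5), where 24.3% of all genes were called, 13.1% higher and 11.1% lower. The libraries of the lines did not overlap for 8 subunits, as for 40.4% of all genes. In knockdown against control, 7 were called, 4 higher (Itga4, Itga5, Itgb3 and Itgb8) and 3 lower (Itga3, Itgav and Itgb1), where 35.4% of all genes were called, 18% higher and 17.4% lower. The libraries did not overlap for 7 subunits, as for 45.8% of all genes. Between overexpression and knockdown, 8 were called, 3 higher in overexpression (Itga3, Itga9 and Itgav) and 5 lower (Itga4, Itga5, Itga6, Itgb5 and Itgb8), where 22.1% of all genes were called, 11% higher and 11.1% lower. The libraries did not overlap for 8 subunits, as for 35.9% of all genes. Both comparisons with control use the same 3 control libraries, so their values are given side by side and are not independent.

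The subunits moved in both directions, and their median log2 fold change was near 0 in the comparisons with control. It was 0.03 in overexpression against control, 0.06 in knockdown against control and -0.21 in overexpression against knockdown, beside -0.0012, -0.0077 and 0.0037 over all genes tested in the same order of comparisons. In size, regardless of sign, the median log2 fold change of the subunits was 0.32 in overexpression against control, beside 0.18 over all genes. It was 0.58 in knockdown against control, beside 0.22 over all genes, and 0.43 in overexpression against knockdown, beside 0.17 over all genes. The subunits were chosen with earlier results of these data known, which limits what their sizes and calls beside all genes can show. When the average transcript length of each gene and library was added as an offset, 5 subunits were called in overexpression against control and 4 in overexpression against knockdown, while the all-gene counts also fell, to 1575 from 3172 and to 1423 from 2887.

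**Figure D1:**
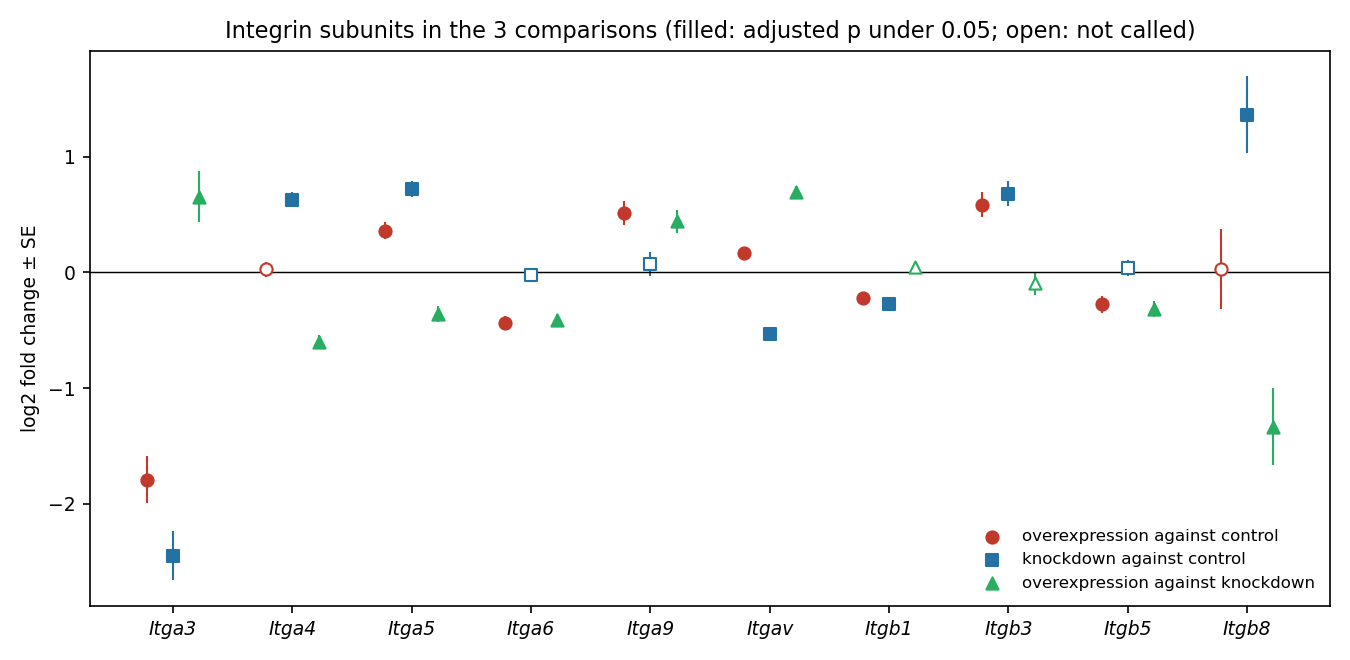
Log2 fold change (vertical axis, ± SE) of each of the 10 integrin subunits in overexpression against control (red circles), knockdown against control (blue squares) and overexpression against knockdown (green triangles), filled where the adjusted p is under 0.05. Itga3 lies farthest below 0 in both comparisons with control (-1.79 and -2.45), and Itgav is the subunit called higher in overexpression and lower in knockdown.

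The promoters are shown of 4 of the 5 subunits called in both comparisons with control. Itga3 and Itgb1 were called lower in each perturbed line against control, Itga5 higher in each, and Itgav in opposite directions. Subunits called against control in overexpression alone or in knockdown alone are not among them. Each window runs from 250 bases before to 50 bases after the start of the gene in RefSeq (build GRCm38.p6), 5′ to 3′ on the strand of the gene. Capitals mark matches, on either strand, to the letters of a GC box (GGGCGG), an ETS core (CCGGAA) or a TEAD core (GGAATG).
Itga3, chr11:95076665-95076964, minus strand: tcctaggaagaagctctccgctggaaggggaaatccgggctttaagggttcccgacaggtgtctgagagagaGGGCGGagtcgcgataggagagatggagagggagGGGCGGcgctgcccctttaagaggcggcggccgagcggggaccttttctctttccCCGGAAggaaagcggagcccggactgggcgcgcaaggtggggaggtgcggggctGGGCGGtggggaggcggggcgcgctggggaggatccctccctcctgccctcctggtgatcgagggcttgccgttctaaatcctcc
Itgb1, chr8:128685404-128685703, plus strand: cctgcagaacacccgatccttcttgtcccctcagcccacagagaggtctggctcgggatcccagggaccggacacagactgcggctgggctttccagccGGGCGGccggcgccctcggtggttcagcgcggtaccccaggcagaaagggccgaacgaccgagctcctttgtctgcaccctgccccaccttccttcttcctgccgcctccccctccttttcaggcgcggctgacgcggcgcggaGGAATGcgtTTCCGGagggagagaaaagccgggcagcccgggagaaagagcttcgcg
Itga5, chr15:103366742-103367041, minus strand: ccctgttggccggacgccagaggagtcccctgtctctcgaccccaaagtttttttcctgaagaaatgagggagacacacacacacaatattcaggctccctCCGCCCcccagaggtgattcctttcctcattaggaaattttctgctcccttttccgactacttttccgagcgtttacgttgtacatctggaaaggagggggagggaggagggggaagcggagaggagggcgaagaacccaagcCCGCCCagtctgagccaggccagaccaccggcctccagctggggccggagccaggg
Itgav, chr2:83724147-83724446, plus strand: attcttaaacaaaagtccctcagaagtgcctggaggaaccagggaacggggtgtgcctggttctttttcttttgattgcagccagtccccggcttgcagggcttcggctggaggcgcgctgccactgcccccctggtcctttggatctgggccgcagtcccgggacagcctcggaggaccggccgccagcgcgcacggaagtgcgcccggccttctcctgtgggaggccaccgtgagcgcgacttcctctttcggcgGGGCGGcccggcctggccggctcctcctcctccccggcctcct
A RefSeq window within 1000 bases of the start of the most abundant transcript was found for 7 of the 10 subunits. The GC box was in 6 of these 7 windows and in 35.7% of all 32841 promoter windows. Itga3 held 3 matches, starting at positions -178, -144 and -35 from the gene start, and Itga5 held 2, at -149 and -6. The ETS core was in 2 of the 7 windows, Itga3 at -89 and Itgb1 at 2, and in 14.9% of all promoters. The TEAD core was in Itgb1 alone, at -7, and in 14.7% of all promoters. None of the 7 windows held the letters of AP-1 (TGANTCA), the E-box (CACGTG), the M-box core (CATGTG) or TATAAA, which 7.81%, 7.15%, 14.2% and 13.6% of all promoters held. The GC content of the 4 windows shown was 66.7% for Itga3, 67.3% for Itgb1, 58.7% for Itga5 and 67.3% for Itgav, beside a median of 52.7% over all promoters. These are matches of letters and show no binding.

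Among the laminin receptor chains, Itga3 had the largest fall of the 10 subunits in both perturbed lines. Itga3 stood at 3.91, 4.001 and 4.81 CPM in the overexpression libraries and at 3.52, 2.26 and 2.19 CPM in the knockdown libraries, against 17.0, 13.3 and 13.9 CPM in the control libraries, in replicate order. Every overexpression and knockdown library lay below every control library. The log2 fold change was -1.79 ± 0.21 (SE) in overexpression, 3.47-fold lower than control (adjusted p = 9.03e-06). In knockdown it was -2.45 ± 0.21 (SE), 5.47-fold lower than control (adjusted p = 2.48e-07). Estimated counts behind these values ran from 68 to 84 in overexpression, 36 to 78 in knockdown and 219 to 282 in control libraries.

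Overexpression libraries were called higher than knockdown libraries for Itga3, by 0.66 ± 0.22 (SE) on the log2 scale (adjusted p = 0.0419). This call was lost in 12 of 18 alternatives, among them DESeq2, limma-voom, the length offset and most fits that left out a library. With the length offset the sign changed as well, at a log2 fold change of -0.20, and the adjusted p over the alternatives ran from 0.00972 to 0.796.

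Itga6, the other laminin-binding alpha chain among the listed subunits, differed in the overexpression line. Its level was 105, 98.8 and 94.97 CPM in overexpression libraries and 132, 139 and 127 CPM in knockdown libraries, against 139, 133 and 131 CPM in control libraries. The overexpression libraries lay below all others, while knockdown and control libraries overlapped. Against control the log2 fold change was -0.43 ± 0.05 (SE) in overexpression (adjusted p = 1.82e-05). In knockdown against control it was -0.02, with a 95% interval of -0.13 to 0.09, and the adjusted p was 0.826. Overexpression was also below knockdown, by -0.41 ± 0.05 (SE) on the log2 scale (adjusted p = 3.18e-05).

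**Figure D2:**
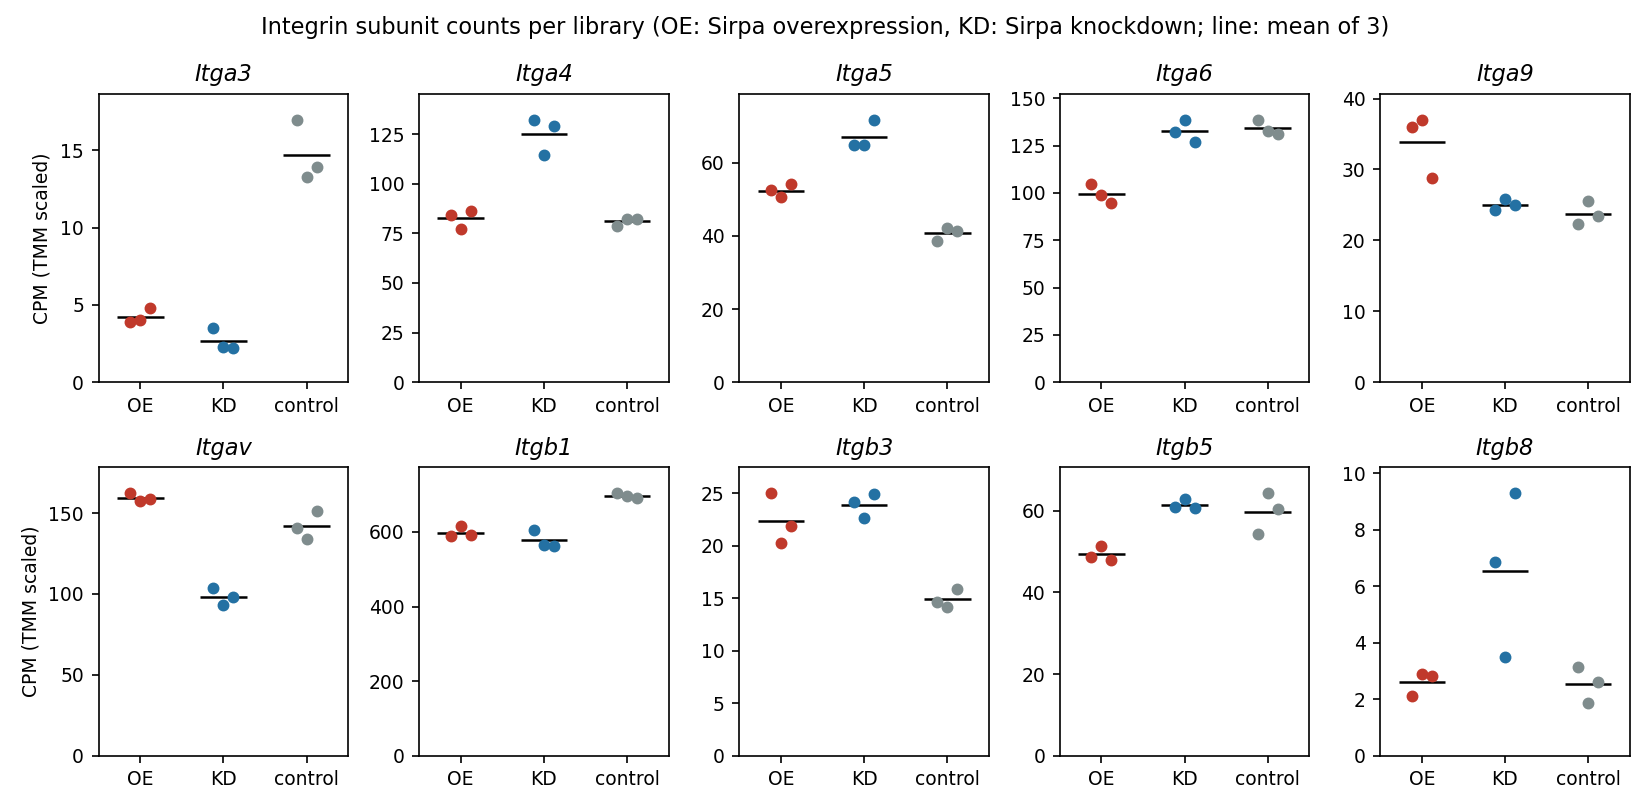
CPM per library (vertical axes from 0, TMM scaled) of the 10 integrin subunits in overexpression (OE, red), knockdown (KD, blue) and control (gray) libraries, 1 point per library with a line at the mean of 3. Itga3 reaches 4.81 CPM at most in overexpression and 3.52 CPM in knockdown, against 13.3 CPM or more in control. The 3 lines are fully apart for Itga3, Itga5 and Itgav.

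Itga5, which with beta1 forms the classical fibronectin receptor, was higher in both perturbed lines and highest in knockdown. The values were 52.5, 50.5 and 54.1 CPM in overexpression libraries and 64.8, 64.9 and 71.8 CPM in knockdown libraries, against 38.7, 42.2 and 41.3 CPM in control libraries. The 3 lines did not overlap. The log2 fold change was 0.36 ± 0.07 (SE) in overexpression against control (adjusted p = 0.00129) and 0.72 ± 0.07 (SE) in knockdown against control (adjusted p = 7.89e-07). Overexpression lay below knockdown by -0.36 ± 0.07 (SE) on the log2 scale (adjusted p = 0.00131). All 3 calls held in each of the 18 alternatives.

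Itgav, the alpha chain of the vitronectin receptors, moved in opposite directions in the lines. It stood at 162, 158 and 159 CPM in overexpression libraries and at 104, 93.3 and 98.0 CPM in knockdown libraries, against 141, 134 and 151 CPM in control libraries. The 3 lines did not overlap, with overexpression above control and knockdown below it. The largest of the 3 differences was between overexpression and knockdown, at 0.70 ± 0.05 (SE) on the log2 scale or 1.62-fold (adjusted p = 1.44e-07).

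The fall of Itgav in knockdown was -0.53 ± 0.05 (SE) on the log2 scale, 1.44-fold lower than control (adjusted p = 1.62e-06), and it held in all 18 alternatives. The rise in overexpression was smaller, 0.17 ± 0.05 (SE) or 1.12-fold (adjusted p = 0.0319). That call was lost with the length offset and without control library 1 or 2 or any 1 of the 3 overexpression libraries, with log2 fold changes of 0.13 to 0.21 over the alternatives and adjusted p from 0.0134 to 0.217.

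Itga4, the alpha chain of the VCAM-1 receptor, was raised in the knockdown line. Its libraries held 84.5, 76.9 and 86.3 CPM in overexpression and 132, 114 and 129 CPM in knockdown, against 78.5, 82.3 and 82.3 CPM in control. All knockdown libraries lay above all others, and overexpression and control libraries overlapped. The log2 fold change was 0.63 ± 0.06 (SE) in knockdown against control (adjusted p = 1.50e-06). It was 0.03 in overexpression against control, with a 95% interval of -0.11 to 0.17 (adjusted p = 0.815). Overexpression was below knockdown by -0.60 ± 0.06 (SE) on the log2 scale (adjusted p = 5.17e-06). Of the 31-base words of Itga4, 7.64% also occur in Cerkl, which overlaps it on the opposite strand and had at most 59.6 counts in a library, where Itga4 had at least 1281. Itgav shared 5.61% of its words with Gm13684, which had at most 2 counts, Itgb5 shared 7.86% with Gm38317, and Itga6 shared 6.2% with other genes, so their totals are less certain than those of subunits that share less.

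Itga9, the alpha chain of the tenascin-C receptor, was raised in the overexpression line. Values were 36.0, 37.0 and 28.8 CPM in overexpression libraries and 24.3, 25.8 and 24.9 CPM in knockdown libraries, against 22.3, 25.6 and 23.4 CPM in control libraries. Even the lowest overexpression library lay above all knockdown and control libraries in CPM, and these overlapped each other. In gene TPM, knockdown library 3 (10.35) lay above overexpression library 3 (10.21). The opposite-strand genes Gm2415 and Gm10157 overlap Itga9 and had at most 46 and 29.5 counts in a library, where Itga9 had at least 364. The fitted log2 fold change was 0.51 ± 0.10 (SE) in overexpression against control (adjusted p = 0.00135) and 0.44 ± 0.10 (SE) in overexpression against knockdown (adjusted p = 0.00434). In knockdown against control it was 0.07, with a 95% interval of -0.14 to 0.29 (adjusted p = 0.625). With the length offset both calls were lost, at log2 fold changes of 0.68 and 0.62, with adjusted p over the alternatives of 2.47e-05 to 0.134 and 0.000468 to 0.182.

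Itgb1, the common beta chain, fell by a small amount in both perturbed lines. It held 589, 615 and 591 CPM in overexpression libraries and 604, 566 and 563 CPM in knockdown libraries, against 704, 696 and 692 CPM in control libraries. Perturbed and control libraries did not overlap, and overexpression and knockdown libraries did. In overexpression the log2 fold change was -0.22 ± 0.04 (SE), 1.17-fold lower than control (adjusted p = 0.000451). In knockdown it was -0.27 ± 0.04 (SE), 1.21-fold lower than control (adjusted p = 3.70e-05). Between the perturbed lines the difference was 0.05, with a 95% interval of -0.03 to 0.13 (adjusted p = 0.394).

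Itgb3, the beta chain of the vitronectin receptor alphavbeta3, was higher in both perturbed lines. The libraries stood at 25.0, 20.2 and 21.8 CPM in overexpression and at 24.1, 22.7 and 24.9 CPM in knockdown, against 14.6, 14.1 and 15.9 CPM in control. Every perturbed library lay above every control library. Relative to control the log2 fold change was 0.59 ± 0.11 (SE) in overexpression (adjusted p = 0.000679) and 0.68 ± 0.11 (SE) in knockdown (adjusted p = 9.92e-05). Between overexpression and knockdown it was -0.09, with a 95% interval of -0.31 to 0.12 (adjusted p = 0.57).

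Itgb5, another vitronectin receptor chain, was lower in the overexpression line. It had 48.7, 51.4 and 48.0 CPM in overexpression libraries and 60.9, 62.8 and 60.7 CPM in knockdown libraries, against 54.4, 64.3 and 60.6 CPM in control libraries. The overexpression libraries lay below all others in CPM, and control libraries spanned the knockdown values. In gene TPM, overexpression library 3 (25.3) lay above control library 1 (24.7). The log2 fold change was -0.28 ± 0.07 (SE) in overexpression against control (adjusted p = 0.01) and -0.32 ± 0.07 (SE) in overexpression against knockdown (adjusted p = 0.00432). The first call was lost without control library 2 and with the length offset, at adjusted p of 0.00329 to 0.126 over the alternatives. The second was lost with the length offset, at 0.000506 to 0.152. In knockdown against control the log2 fold change was 0.04, with a 95% interval of -0.11 to 0.19 (adjusted p = 0.709).

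Itgb8, whose pairing with alphav is known for activating latent TGF-beta, was the scarcest subunit in mean gene TPM and varied among knockdown libraries. Its mean CPM in knockdown libraries was above that of Itga3 (6.55 and 2.66). Its level was 2.12, 2.88 and 2.81 CPM in overexpression libraries and 6.85, 3.51 and 9.30 CPM in knockdown libraries, against 3.13, 1.88 and 2.61 CPM in control libraries. All knockdown libraries lay above all others in CPM, although knockdown library 2 exceeded the highest control library by little. In gene TPM, knockdown library 2 (0.622) lay below overexpression library 3 (0.660). The counts behind these levels were 45 to 49 in overexpression, 59 to 153 in knockdown and 31 to 53 in control libraries.

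The log2 fold change of Itgb8 was 1.37 ± 0.33 (SE) in knockdown against control, 2.58-fold higher (adjusted p = 0.0044). In overexpression against control it was 0.03, with a 95% interval of -0.70 to 0.76 (adjusted p = 0.961), an interval that leaves room for changes in either direction. Overexpression was below knockdown by -1.33 ± 0.33 (SE) on the log2 scale (adjusted p = 0.00838). This last call was lost without knockdown library 3 and with the length offset, at log2 fold changes of -1.01 and -1.18 and adjusted p of 0.000258 to 0.0899 over the alternatives.

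Possible pairs were described by the ratio of alpha to beta transcript in TPM. Transcript ratios say nothing of which chains were paired at the surface. Itgb1 exceeded each alpha partner in all 9 libraries. The 6 alpha chains together came to 0.608, 0.551 and 0.575 of the Itgb1 level in overexpression libraries and to 0.571, 0.621 and 0.607 in knockdown libraries, against 0.508, 0.508 and 0.528 in control libraries. All perturbed libraries lay above the control libraries. On the log2 scale the ratio was higher than control by 0.17 in overexpression and by 0.22 in knockdown, each with p = 0.1 in an exact two-sided permutation test, the smallest p that 3 libraries against 3 allow. Overexpression and knockdown overlapped, with a difference of -0.05 (exact permutation p = 0.5).

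Summed transcripts of the listed alpha chains were close between the lines and overlapped. They were 134 to 139 TPM in overexpression, 136 to 143 TPM in knockdown and 135 to 140 TPM in control libraries. These sums, and the ratio to Itgb1 above, leave out other alpha chains. Among those is Itga1, at a mean of 24.0 CPM in overexpression, 31.2 CPM in knockdown and 21.4 CPM in control libraries. Summed transcripts of the listed beta chains, which leave out Itgb4, were 297 to 306 TPM in control libraries. They were 259 to 273 TPM in overexpression and 268 to 276 TPM in knockdown libraries. All 10 subunits together came to 399 to 411 TPM in overexpression and 411 to 414 TPM in knockdown libraries, against 437 to 442 TPM in control libraries. The total was lower than control by -0.11 on the log2 scale in overexpression and by -0.09 in knockdown, with all libraries below control and an exact permutation p of 0.1 for each.

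The makeup of the listed alpha chains differed between the lines. Itgav made up 36.7% to 38.7% of summed alpha TPM in overexpression and 19.96% to 24.4% in knockdown libraries, against 27.5% to 34.4% in control libraries. Itga5 made up 12.6% to 13.6% in overexpression and 15.9% to 18.1% in knockdown libraries, against 9.33% to 10.3% in control libraries. Itga6 made up 30.7% to 31.6% in overexpression and 39.2% to 42.7% in knockdown libraries, against 38.2% to 41.3% in control libraries. For Itgav and Itga5 the 3 lines were apart, and for Itga6 the overexpression libraries were below all others. Itga3 made up 0.839% to 1.08% in overexpression and 0.515% to 1.57% in knockdown libraries, against 2.95% to 5.53% in control libraries.

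**Figure D3:**
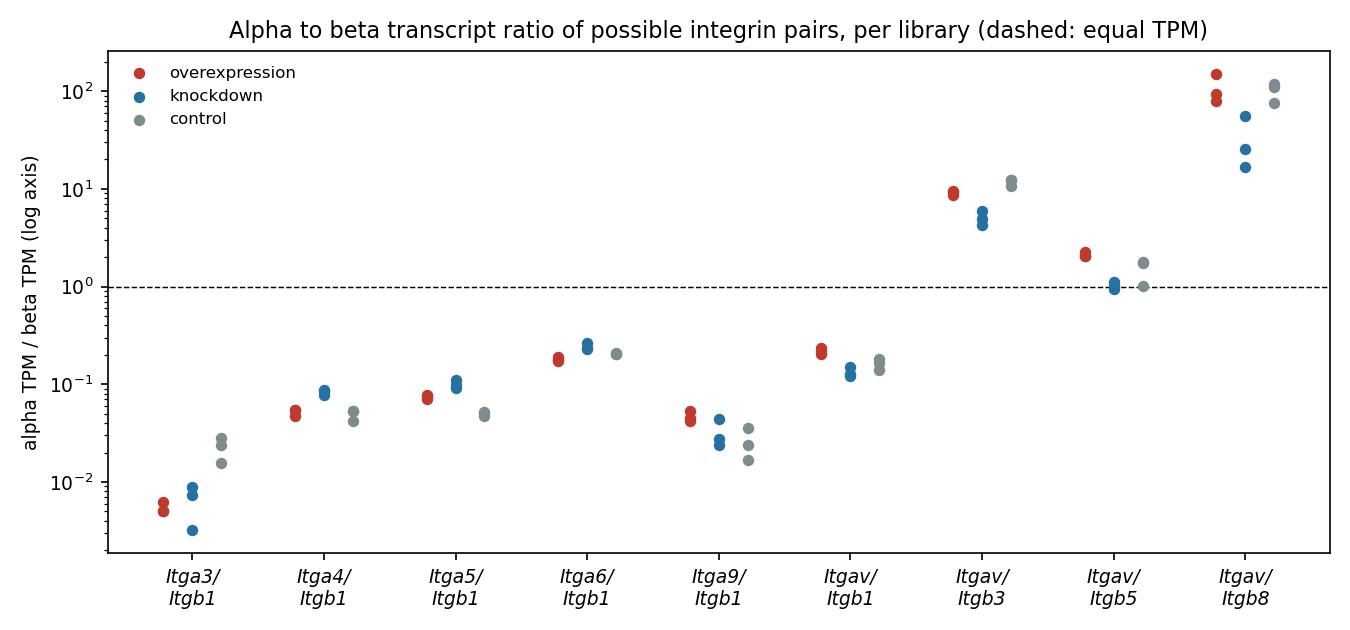
Ratio of alpha to beta TPM (vertical axis, log scale) for 9 possible integrin pairs, 1 point per overexpression (red), knockdown (blue) and control (gray) library, with a dashed line at equal TPM. The 6 pairs with Itgb1 lie below 1 in every library. Itgav over Itgb5 averages 2.13 in overexpression and 1.02 in knockdown, against 1.53 in control.

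For the partners of alphav other than beta1, Itgav was set over the sum of Itgb3, Itgb5 and Itgb8. The ratio was 1.78, 1.66 and 1.65 in overexpression libraries and 0.810, 0.920 and 0.735 in knockdown libraries, against 1.54, 0.924 and 1.52 in control libraries. Overexpression lay above control and knockdown below it, but control library 2 stood close to the highest knockdown library. The log2 difference was 1.05 in overexpression against knockdown, 0.39 in overexpression against control and -0.66 in knockdown against control, each at the smallest possible p of 0.1 in the exact two-sided permutation test. Without control library 2, the difference of overexpression against control was 0.15, and that of knockdown against control was -0.90.

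Among single pairs, Itgav over Itgb3 stood at 8.68 to 9.59 in overexpression and 4.25 to 5.89 in knockdown libraries, against 10.7 to 12.3 in control libraries, so it was lower than control in all 6 perturbed libraries. Of the TPM of Itgb3, Itgb5 and Itgb8 together, Itgb3 made up 17.4% to 20.6% in overexpression and 15.6% to 17.3% in knockdown libraries. It made up 8.61% to 12.6% in control libraries. Itgb5 made up the larger part, 78.3% to 80.9% in overexpression and 78.3% to 82.7% in knockdown libraries, against 85.4% to 90.6% in control libraries. Itga5 over Itgb1, the transcripts of the fibronectin receptor, stood at 0.0705 to 0.0781 in overexpression and 0.0924 to 0.110 in knockdown libraries, against 0.0474 to 0.0522 in control libraries.

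The split of a gene among its transcripts limits these per-length levels. Itga5, Itgb1 and Itgb3 had 99% or more of their TPM in 1 transcript in each line. Itga6 was divided between the coding transcript Itga6-201 and the noncoding processed transcript Itga6-203, which held 42.7% of its TPM in overexpression, 41.0% in knockdown and 41.1% in control libraries. Itgav-206, a short coding transcript with a median effective length of 404 bases, held 35.5% of Itgav TPM in overexpression, 32.6% in knockdown and 33.1% in control libraries.

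Some transcripts came out at 0 in part of the libraries. Itga9-204 was at 0 in 4 of 9 libraries, Itga9-202 in 4 and Itga3-206 in 5. The main Itga3 transcript, Itga3-201, has a median effective length of 4577 bases and was at 0 in knockdown library 2. It held 100% of Itga3 TPM in overexpression, 35.8% in knockdown and 68.8% in control libraries. Mean Itga3 TPM was 1.53 in knockdown and 1.30 in overexpression, the reverse order of its mean CPM (2.66 and 4.24). The cause was not tested. Itgb5-207 was also at 0 in 4 libraries and reached 6.93 TPM in control library 2, whose Itgb5 total of 36.4 TPM stood above the 24.7 and 27.4 TPM of the other control libraries. Counting only the most abundant transcript of each gene, a choice made after these zeros were seen, gave 1.03 for the log2 difference of the Itgav ratio in overexpression against knockdown and 0.31 and -0.72 for overexpression and knockdown against control.

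Of the integrin subunit genes outside the 10, 18 have a total in the files and 8 passed the filter. Of these 8, 12.5% were called in overexpression against control, 25% in knockdown against control and 25% between the perturbed lines, beside 24.3%, 35.4% and 22.1% of all genes. Itga1, an alpha chain of collagen receptors, and Itgb4, the partner of alpha6 in hemidesmosomes, were called higher in knockdown against control. Itgb4 stood at 3.35, 5.30 and 5.10 CPM in overexpression libraries and 8.03, 7.38 and 9.30 CPM in knockdown libraries, against 2.82, 3.82 and 2.66 CPM in control libraries. Its log2 fold change in knockdown against control was 1.41 ± 0.24 (SE; adjusted p = 0.000243). Itga1 averaged 24.0 ± 2.16 CPM in overexpression, 31.2 ± 0.272 CPM in knockdown and 21.4 ± 1.90 CPM in control libraries (SD, n = 3 each), with a log2 fold change of 0.55 ± 0.10 (SE) in knockdown against control (adjusted p = 0.0003).

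Itga7, a laminin-binding alpha chain best known from muscle, was the only 1 of the 8 called in overexpression against control. It averaged 4.32 ± 0.181 CPM in overexpression, 2.80 ± 0.876 CPM in knockdown and 1.93 ± 0.443 CPM in control libraries (SD, n = 3 each). Its log2 fold change in overexpression against control was 1.17 ± 0.32 (SE; adjusted p = 0.0144), and the call was lost without control library 3, with adjusted p of 0.00489 to 0.0593 over the alternatives. Without overexpression library 1, 2 of the 8 were called in that comparison. Between overexpression and knockdown, Itga1 (-0.38 ± 0.09) and Itgb4 (-0.85 ± 0.23) were called lower (log2 fold change ± SE; adjusted p = 0.00772 and 0.0147), and both calls were lost with the length offset. The Itgb4 call was also lost without knockdown library 3 and without overexpression library 1. Itga2, Itga2b, Itga8, Itga10 and Itgb2 were tested and not called in any comparison, and none of them reached 4 CPM in a library.

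Genes of integrin ligands moved in both directions. Of 31 tested ligand genes, 6 were called higher and 5 lower in overexpression against control, and 10 higher and 7 lower in knockdown against control. Between overexpression and knockdown 9 were higher and 8 lower. These are 35.5%, 54.8% and 54.8% of the ligand genes, beside 24.3%, 35.4% and 22.1% of all genes. With the length offset 7 were called in overexpression against control, where calls over all genes fell to 1575 from 3172. The median size of their log2 fold change was 0.35 in overexpression and 0.51 in knockdown against control, beside 0.18 and 0.22 over all genes. Fn1, which encodes fibronectin, averaged 123 ± 11.4 CPM in overexpression and 111 ± 1.81 CPM in knockdown libraries, against 487 ± 7.67 CPM in control libraries (SD, n = 3 each). Its log2 fold change was -1.98 ± 0.05 (SE) in overexpression (adjusted p = 4.30e-13) and -2.14 ± 0.05 (SE) in knockdown (adjusted p = 1.49e-13). The fall stood beside higher Itga5, the alpha chain of its main receptor, in both perturbed lines.

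Lamc1, the gamma1 chain shared by many laminins, averaged 223 ± 9.82 CPM in overexpression and 262 ± 8.32 CPM in knockdown libraries, against 141 ± 5.45 CPM in control libraries (SD, n = 3 each). Its log2 fold change was 0.67 ± 0.05 (SE) in overexpression (adjusted p = 5.03e-08) and 0.90 ± 0.05 (SE) in knockdown (adjusted p = 5.94e-10). Thbs1, encoding thrombospondin-1, averaged 33.3 ± 2.70 CPM in overexpression and 17.1 ± 1.21 CPM in knockdown libraries, against 12.4 ± 0.343 CPM in control libraries. It was called higher in both, by 1.42 ± 0.10 and 0.46 ± 0.10 on the log2 scale (± SE; adjusted p = 5.55e-08 and 0.0022).

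Col1a1, the collagen I alpha1 chain, averaged 66.5 ± 3.53 CPM in overexpression and 4.95 ± 0.702 CPM in knockdown libraries, against 55.6 ± 2.45 CPM in control libraries (SD, n = 3 each). Its log2 fold change was 0.26 ± 0.08 (SE) in overexpression (adjusted p = 0.0233) and -3.50 ± 0.10 (SE) in knockdown (adjusted p = 4.57e-13). Col1a1 is also 1 of 6 fibroblast markers, of which 4 were tested. Dcn and Lum were not tested, with at most 6 and 4 counts in a library. The summed level of the 6 markers was 88.8 to 100.2 CPM in overexpression and 31.2 to 33.1 CPM in knockdown libraries. In control libraries it was 72.2 to 79.8 CPM. Without Col1a1 the sum was 25.7 to 30.0 CPM in overexpression and 26.4 to 28.5 CPM in knockdown libraries, against 19.4 to 23.5 CPM in control libraries, so the other fibroblast markers did not fall with Col1a1 in knockdown. Col1a2, the alpha2 chain of collagen I, was called higher in both lines, by 0.67 ± 0.21 in overexpression and 0.71 ± 0.21 in knockdown on the log2 scale (± SE; adjusted p = 0.0271 and 0.0136). Pdgfrb was called higher in overexpression (0.50 ± 0.16, adjusted p = 0.0322) and not in knockdown (0.33 ± 0.16, adjusted p = 0.131), and Pdgfra was called in neither.

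**Figure D4:**
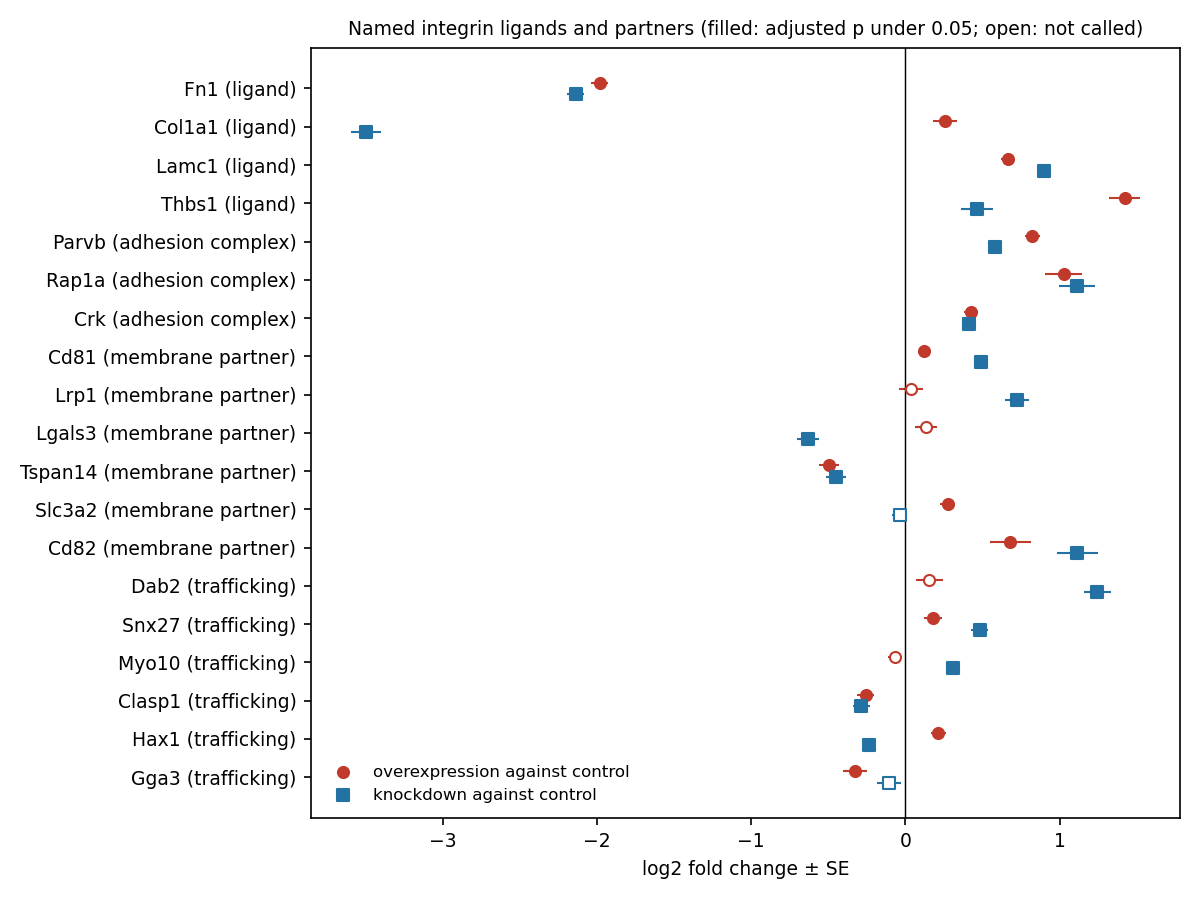
Log2 fold change (horizontal axis, ± SE) of the named ligand, adhesion complex, membrane partner and trafficking genes in overexpression (red circles) and knockdown (blue squares), both against control, filled where the adjusted p is under 0.05. Fn1 lies near -2 in both (-1.98 and -2.14), while Col1a1 (0.26 and -3.50) and Hax1 (0.21 and -0.24) lie on opposite sides of 0.

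Genes of integrin activation and the adhesion complex moved by small amounts, with a median size of the log2 fold change of 0.12 in overexpression and 0.18 in knockdown against control, beside 0.18 and 0.22 over all genes. Of 36 tested, 9 were called higher and 3 lower in overexpression against control, 12 higher and 4 lower in knockdown against control, and 6 higher and 5 lower between overexpression and knockdown. These are 33.3%, 44.4% and 30.6% of the list, beside 24.3%, 35.4% and 22.1% of all genes. With the length offset 8 were called in knockdown against control and 6 between the perturbed lines. Calls over all genes fell with the offset as well, to 2794 from 4619 and to 1423 from 2887. Between the perturbed lines 7 were called without overexpression library 1, where leaving out a library gave 2241 to 2867 calls over all genes. Parvb, encoding an adapter of the complex with integrin-linked kinase, averaged 211 ± 2.66 CPM in overexpression and 179 ± 4.13 CPM in knockdown libraries, against 119 ± 6.68 CPM in control libraries. Rap1a, a small GTPase that promotes integrin activation, averaged 64.0 ± 11.9 CPM in overexpression and 68.1 ± 3.74 CPM in knockdown libraries, against 31.4 ± 4.43 CPM in control libraries. Crk, an adapter downstream of focal adhesion kinase, averaged 210.4 ± 3.05 CPM in overexpression and 208 ± 8.34 CPM in knockdown libraries, against 156 ± 6.70 CPM in control libraries (SD, n = 3 each). All 3 genes were called higher in both comparisons with control, at adjusted p of 4.20e-09, 1.05e-05 and 4.23e-06 in overexpression and 1.03e-07, 2.34e-06 and 2.96e-06 in knockdown.

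Membrane proteins that associate with integrins moved in both directions. Of 21 tested, 4 were higher and 3 lower in overexpression against control, 5 higher and 9 lower in knockdown against control, and 4 higher and 6 lower between overexpression and knockdown. These are 33.3%, 66.7% and 47.6% of the list, beside 24.3%, 35.4% and 22.1% of all genes. The length offset left 8 calls in knockdown against control and 6 between the perturbed lines. Over all genes it left 2794 of 4619 calls and 1423 of 2887 calls in these comparisons. Without control library 1, the list had 4 calls in overexpression against control, where leaving out a library gave 2440 to 3297 calls over all genes. The tetraspanin gene Cd82 averaged 18.4 ± 2.79 CPM in overexpression and 25.0 ± 3.39 CPM in knockdown libraries, against 11.6 ± 0.832 CPM in control libraries. Cd81, another tetraspanin, averaged 313 ± 2.99 CPM in overexpression and 404 ± 7.25 CPM in knockdown libraries, against 288 ± 5.68 CPM in control libraries. Both were called higher in each line, Cd82 at adjusted p of 0.00138 and 6.80e-06 and Cd81 at 0.0225 and 4.31e-08 in overexpression and knockdown.

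Tspan14, a tetraspanin that partners the protease ADAM10, averaged 39.6 ± 1.43 CPM in overexpression and 40.9 ± 0.0710 CPM in knockdown libraries, against 55.9 ± 0.704 CPM in control libraries, and was called lower in both (adjusted p = 3.10e-05 and 4.48e-05). Lrp1, an endocytic receptor, and Lgals3, which encodes galectin-3, were called in knockdown against control alone of the comparisons with control, with log2 fold changes of 0.72 ± 0.08 and -0.63 ± 0.07 (± SE). In overexpression against control Lrp1 stood at 0.04 and Lgals3 at 0.13, and overexpression differed from knockdown for both (adjusted p = 1.02e-05 and 1.17e-06). Slc3a2, the CD98 heavy chain that binds integrin beta tails, had a log2 fold change of 0.28 ± 0.05 (SE) in overexpression (adjusted p = 0.000471) and -0.04 ± 0.05 in knockdown (adjusted p = 0.594). Cd47 averaged 36.1 ± 0.945 CPM in overexpression and 38.7 ± 3.26 CPM in knockdown libraries, against 35.2 ± 1.88 CPM in control libraries, and was not called in any comparison.

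Of 17 tested genes of integrin trafficking, 3 were called higher and 2 lower in overexpression against control, 5 higher and 3 lower in knockdown against control, and 1 higher and 5 lower between overexpression and knockdown. These are 29.4%, 47.1% and 35.3% of the list, beside 24.3%, 35.4% and 22.1% of all genes. In overexpression against control, 1 gene, a lower one, was called with the length offset, and 3 were called without overexpression library 3. Over all genes, calls in that comparison fell to 1575 from 3172 with the offset, and leaving out a library gave 2440 to 3297. Dab2, an endocytic adapter for beta1 integrins, averaged 46.4 ± 1.53 CPM in overexpression and 98.7 ± 10.2 CPM in knockdown libraries, against 41.7 ± 4.44 CPM in control libraries (SD, n = 3 each). Its log2 fold change was 1.24 ± 0.09 (SE) in knockdown against control (adjusted p = 2.16e-08) and 0.16 ± 0.09 in overexpression against control (adjusted p = 0.231). Snx27, a sorting nexin of the recycling route, was called higher in both lines, by 0.18 ± 0.06 in overexpression and 0.48 ± 0.06 in knockdown (± SE; adjusted p = 0.0289 and 5.80e-06), and its overexpression call was lost with the length offset and without overexpression library 3. Myo10, a filopodial myosin that carries integrins, rose by 0.31 ± 0.04 in knockdown (adjusted p = 3.42e-05) and stood at -0.07 in overexpression. Hax1, in human cells a binding partner of beta6, had a log2 fold change of 0.21 ± 0.05 in overexpression and -0.24 ± 0.05 in knockdown (adjusted p = 0.00344 and 0.00107). Itgb6, which encodes beta6, was at 0 in every library. Clasp1, a microtubule plus-end protein, was lower in both lines (-0.26 ± 0.06 and -0.29 ± 0.06), and Gga3, a sorting adapter of beta1 recycling, was lower in overexpression (-0.33 ± 0.08, adjusted p = 0.00609). The overexpression calls of Hax1 and Gga3 were lost with the length offset, at adjusted p over the alternatives of 0.000873 to 0.168 and 0.00514 to 0.254.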

How the data were processed

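The 9 libraries were non-directional and were sequenced as paired reads of 150 bases, per the labels' protocols, so reads of overlapping genes on opposite strands cannot be told apart. The deposited tables hold, per the file headers, an estimated count, an effective length in bases and TPM for each transcript. Salmon 1.4.0, MultiQC 1.11, DESeq2 1.34.0 and the build mm39 are named in the submitters' processing notes, while the sources used here give no annotation release or read trimming. Because Salmon shares fragments out between like transcripts, values of single transcripts are less certain than gene totals.

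Of 140789 transcripts, 137161 (97.42%) were matched by identifier to gene names with GENCODE M21 of GRCm38, and the rest, 0.554% to 0.654% of a library's counts, were left out. The authors' estimated counts were summed per gene and rounded. Counts were tested with edgeR 4.0.16 (R 4.3.3; filterByExpr, TMM, a quasi-likelihood fit with a term for line to the 9 libraries together), with Benjamini-Hochberg adjustment over 13064 genes and a threshold of 0.05. Standard errors were derived from the fold change and its F statistic, and intervals are 95% intervals. The deposited TPM were summed per gene, and sums and ratios were compared with exact two-sided permutation tests. The scripts were tested on simulated counts. Library pairs of a line differed beyond sampling noise, so no library was a copy.

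Alternatives were DESeq2 size factors, DESeq2 1.42.0, limma-voom (limma 3.58.1), other filters on low counts, scaling by total count, a replicate block, a transcript length offset, fits to the 2 lines compared, leaving out each library, and for TPM a pseudocount of 1, protein-coding genes or transcripts only and the most abundant transcript only. The last was chosen after seeing the data. The subunits and gene lists were chosen with earlier results of these data known. Named genes were all 10 subunits, other integrin genes with 10 or more counts in a library, and up to 3 called genes of each other list with the lowest adjusted p in each comparison with control and a mean of at least 5 CPM in 1 line, with Cd47 added by choice. Genes with a like pattern over libraries are not given, since the libraries fall into 3 separate lines. Promoter windows and letters are from RefSeq for GRCm38.p6, and no mm39 coordinates are used. Shared sequence is the percentage of 31-base words of a gene found in another gene.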

Additional observations from a re-analysis of the deposited data

How the results depend on the processing

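Over 18 alternatives for each subunit and comparison, 506 of 540 log2 fold changes kept their direction and their side of the threshold, 25 lost a call and 10 changed sign, 1 of them doing both. Of the 10, 9 belonged to differences that were not called: Itga6 in knockdown against control (0.0074 without control replicate 1 and 0.015 without knockdown replicate 3, in a range from -0.048 to 0.015 when each library was left out), Itgb5 in knockdown against control (-0.016 with the length offset and -0.020 without control replicate 1, range to 0.098), Itga4 in overexpression against control (-0.15 with the length offset and -0.0082 without overexpression replicate 3, range to 0.076) and Itgb8 in overexpression against control (-0.14 without control replicate 2, -0.046 without overexpression replicate 2 and -0.031 without overexpression replicate 3, range to 0.20). The other was Itga3 in overexpression against knockdown, at -0.20 with the length offset, which also lost its call.

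With the length offset there were calls for 5 subunits, 22 other listed genes and 1575 of all genes in overexpression against control, 4, 29 and 1423 in overexpression against knockdown, and 2794 of all genes in knockdown against control; the cause was not tested. Leaving out a library gave 6 to 8 subunits in overexpression against control, 6 to 8 in overexpression against knockdown and 7 in knockdown against control. Over all genes it gave 2440 to 3297, 2241 to 2867 and 3885 to 4555 calls in the same order. With 2 libraries against 3 the exact test cannot go below p = 0.2. All 90 alternatives of the TPM sums and ratios kept their direction. Other scalings moved the median of all genes by less than 0.01 on the log2 scale.

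Deviations of same-numbered libraries from their line means correlated at -0.0998 to 0.136, beside -0.148 to 0.101 for libraries of different numbers. The labels do not say that a number marks a shared day, so the numbers were not taken to pair the samples. With the replicate number as a block, 8 subunits were called in overexpression against control, 7 in knockdown against control and 8 in overexpression against knockdown, with 2957, 4423 and 2712 of all genes and 35, 55 and 44 other listed genes. Itga3 and Itgb8 had the fewest counts of the 10 subunits, which limits the precision of their fold changes.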
